A study of Mus musculus with 22 samples.

Results

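The step from early carcinoma to late carcinoma was examined in mammary tumors of MMTV-PyMT mice. In this model the mouse mammary tumor virus promoter drives a viral oncogene (polyoma middle T) in epithelial cells of the gland, and tumors arise without further treatment on the FVB background. Early carcinoma was taken at week 10 (3 mice, replicates 1, 2 and 3). Late carcinoma was taken at week 12 (2 mice, replicates 1 and 3). The paper describes late carcinoma with lung metastasis for most PyMT mice of that age. The sample labels do not state whether the late carcinoma mice had metastases. In all, 5 of the 22 samples of the series entered the comparison. The paper collected 3 PyMT mice per time point and removed 2 outlier samples after checks of coverage, methylation and principal components. It does not name them, and late carcinoma replicate 2 is not among the 22 samples. The late group may therefore be what such a removal left. Normal mammary glands of FVB mice of the same weeks (3 mice per week, no transgene) served as a background for what changes with age alone. All samples were pieces of whole tissue, so a change in the share of a cell type cannot be told apart from a change of methylation within cells. The labels do not say which of the tumors of a mouse was taken.

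DNA methylation was read by ERRBS, in which DNA is cut with a restriction enzyme, converted with bisulfite and sequenced, so that a methylated cytosine of a CpG stays a cytosine and an unmethylated one is read as thymine. The members of the comparison were the 1240908 autosomal CpG positions covered by at least 10 reads in all 5 mice, 83.4% of the 1487289 positions seen in any of them, with the strands of a CpG counted apart. Mean coverage was 66.8 to 76.3 reads per position. Across all positions early carcinoma had a mean methylation of 25.2%, 25.6% and 25.2% in its 3 mice, and late carcinoma had 25.1% and 25.3%. The stages therefore overlapped in their overall level.

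In mammalian genomes most CpGs are methylated, while the CpG-dense stretches at gene starts, the CpG islands, are kept free of methylation. Methylation of a CpG island at a promoter goes with silencing of the gene. Tumors as a class lose methylation in CpG-poor DNA and gain it at islands, in particular at the genes of developmental transcription factors that Polycomb repressive complex 2 holds silent in normal tissue. Early and late carcinoma of the PyMT model are both malignant, and the comparison asks what still changes between them.

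The promoters with the most hyper-DMCs in late carcinoma were nearly unmethylated in FVB glands. The windows printed below have a fixed length, which does not measure how far the gains reached. The sequences below are 150-bp windows (mm10, forward strand, 5′ to 3′) in the promoters of the 5 genes with the most promoter hyper-DMCs. Each holds the most hyper-DMCs among the windows with little or no untranslated (UTR) sequence. Windows with more UTR were passed over, whatever their count. A DMC is a differentially methylated cytosine, here a position that passed a q of 0.01 and differed by 10 percentage points or more, and a hyper-DMC is one with more methylation in late carcinoma. Capitals mark the CpGs with a hyper-DMC on either strand. The windows were placed after the values were seen and were chosen by this contrast, so the differences between stages in them are descriptions only.
Ajap1 window, chr4:153482805-153482954, across the start site, with 26 bases of 5′ UTR: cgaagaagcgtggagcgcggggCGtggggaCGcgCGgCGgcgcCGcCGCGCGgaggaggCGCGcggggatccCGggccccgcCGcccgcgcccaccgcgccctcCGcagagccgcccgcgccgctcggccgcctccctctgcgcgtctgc
Gabra5 window, chr7:57509408-57509557, in the first part of the gene outside its exons: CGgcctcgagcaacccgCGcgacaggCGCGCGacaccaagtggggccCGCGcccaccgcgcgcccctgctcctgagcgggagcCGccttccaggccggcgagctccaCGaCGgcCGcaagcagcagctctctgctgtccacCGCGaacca
Nlrp5-ps window, chr7:14623229-14623378, just upstream of the start site: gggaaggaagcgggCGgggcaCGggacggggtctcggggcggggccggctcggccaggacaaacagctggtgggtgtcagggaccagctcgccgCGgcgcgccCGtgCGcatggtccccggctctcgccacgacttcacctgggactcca
Fam217b window, chr2:178414001-178414150, in the coding exon of its divergent neighbour Ppp1r3d: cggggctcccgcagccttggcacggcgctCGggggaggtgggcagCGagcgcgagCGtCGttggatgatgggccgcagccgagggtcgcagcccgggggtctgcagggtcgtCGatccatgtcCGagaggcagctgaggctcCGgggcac
Gm5069 window, chr1:180331897-180332046, upstream of the start site: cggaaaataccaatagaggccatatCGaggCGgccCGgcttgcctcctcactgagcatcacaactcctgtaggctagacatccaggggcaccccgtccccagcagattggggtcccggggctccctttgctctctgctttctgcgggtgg

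Ajap1 encodes a membrane protein of adherens junctions. In its window 13 of 27 covered CpGs were hyper-DMCs, spread along the upstream side and over the start site. Mean methylation of the 28 positions was 18.4%, 17.7% and 14.7% in early carcinoma and 35.9% and 31.6% in late carcinoma. FVB glands of week 12 had 0.952% there (0.797% to 1.05% in 3 mice). Hyperplasia, the first PyMT stage at week 6, had 5.76%, and adenoma/MIN of week 8 had 13.9%. The mouse with the highest early value was thus well below both late mice, and the level of adenoma overlapped with that of early carcinoma.

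The window of Gabra5, which encodes a subunit of the GABA-A receptor, held 13 hyper-DMCs among 22 covered CpGs. Its methylation was 23.6%, 20.2% and 13.5% in early carcinoma and 36.7% and 30.8% in late carcinoma. FVB glands of week 12 were at 1.75%, hyperplasia at 7.89% and adenoma/MIN at 15.1%. Nlrp5-ps, a pseudogene, was at 10.4%, 10.9% and 9.98% in early and at 18.3% and 16.9% in late carcinoma. In the Fam217b window the early mice had 5.51%, 8.10% and 5.28% and the late mice 12.6% and 16.5%. The Gm5069 window, with 9 positions, varied most within early carcinoma, from 3.69% to 14.8%, against 32.4% and 26.97% in late carcinoma. In all 5 windows each FVB mouse of any week had less than each early and late mouse except at Gm5069, where 1 FVB mouse of week 12 reached 3.77%.

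**Figure D1:**
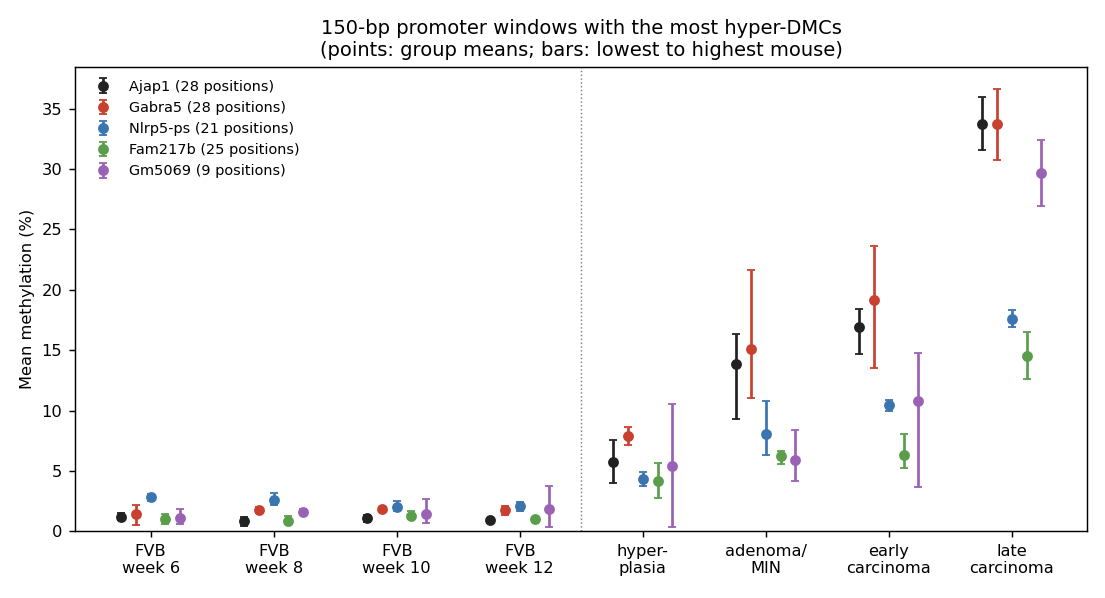
Mean methylation in percent (y axis) of the 5 promoter windows printed above in the 8 groups of the series (x axis), at positions covered in all 22 samples. Points are group means and bars run from the lowest to the highest mouse (3 mice per group, 2 in hyperplasia and in late carcinoma). FVB groups stay under 4%, and the late carcinoma mean of the Ajap1 window (33.7%) stands above that of early carcinoma (16.9%).

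Over whole promoters, taken as 2 kb on each side of a RefSeq transcription start site, the same 5 genes led by count. Ajap1 held 55 hyper-DMCs among 249 promoter positions, and its mean promoter methylation was 17.4%, 19.24% and 15.3% in early and 29.8% and 27.5% in late carcinoma. Gabra5 held 26 among 133 positions, Nlrp5-ps 22 among 113, Fam217b 14 among 66 (it shares every promoter position with Ppp1r3d, a regulatory subunit of protein phosphatase 1) and Gm5069 12 among 85. None of the 5 promoters held a hypo-DMC. Within 500 bp of the Gm5069 start site the stages differed by -0.02 points, so its gain lay farther out. In the same promoters the FVB glands moved by -0.20 to 0.17 points from week 10 to week 12. With the mouse as the unit, the Ajap1 difference was 11.3 ± 1.61 points (SE, limma), with an adjusted p of 0.696, and that of Fam217b 7.85 ± 1.20 points with the same adjusted p. The change of these promoters in PyMT was set against that in FVB by an interaction term, which gave adjusted p of 0.137 for Ajap1 and for Fam217b and 0.149 for Nlrp5-ps. These were among the lowest of 15152 promoters tested, none of which passed the threshold of 0.05. Since the 5 genes were picked by their counts in this contrast, those p-values are printed as values of the fit across all promoters and support nothing further.

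Across the tested positions, late carcinoma had 4305 hyper-DMCs and 5319 hypo-DMCs, which are 0.347% and 0.429% of positions and together 0.776%. Hyper-DMCs made up 44.7% of all DMCs. The median difference was 17.5 points at hyper-DMCs and -19.1 points at hypo-DMCs, so most changes were partial. A test on pooled reads treats reads, not mice, as the unit, and the counts are larger than a test over mice would give. The same test between FVB glands of weeks 12 and 10 called 0.176% of positions (1080 higher and 1008 lower at week 12), against 0.809% for the carcinomas at those positions. With only replicates 1 and 3 of FVB week 12 it called 0.237%. Of the carcinoma calls, 15 hyper-DMCs and 11 hypo-DMCs were called in the same direction in FVB glands (3 mice per week). They were 0.349% and 0.208% of the carcinoma calls and 1.39% and 1.09% of the FVB calls. Over all those positions, FVB glands had 0.0912% called higher and 0.0851% called lower. Both late mice lay above all 3 early mice at 83.4% of hyper-DMCs and below them at 87.2% of hypo-DMCs, where the calls themselves favour such positions. Over all positions the shares were 5.02% and 4.50%.

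With mice as the unit, limma on logit methylation called none of the 1240908 positions, although 31987 positions were higher and 13615 lower at an unadjusted p under 0.05. An overdispersion correction of the read test left 410 hyper-DMCs and 593 hypo-DMCs. Nor were the stages farther apart than mice of a stage. The root mean square difference between an early and a late mouse averaged 7.87 points (6.58 to 8.85 over 6 pairs), against 8.02 points over the 3 pairs of early mice and 7.59 points between the late mice. The closest of all pairs was early carcinoma replicate 1 with late carcinoma replicate 1. With any of 4 mice left out losses remained more frequent than gains, while without early carcinoma replicate 2 the read test called 5235 hyper-DMCs and 4832 hypo-DMCs, or 52.0% hyper-DMCs, so the excess of losses rests on that mouse. The share of hyper-DMCs was 49.8% without late carcinoma replicate 1. It was 52.1% with the replicate block, where early carcinoma replicate 2 also drops out, since late carcinoma has no replicate 2. Without early carcinoma replicate 1 the read test called 6705 hyper-DMCs and 8502 hypo-DMCs, without early carcinoma replicate 3 it called 2567 and 3620, and without late carcinoma replicate 3 it called 2637 and 3044.

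The direction of the changes followed the CpG density of the surrounding sequence. Positions were split into 4 classes of similar size by the number of CpGs within 100 bp on each side. In the sparsest class (1 to 7 CpGs) 1947 positions gained and 3722 lost methylation, so 34.3% of the DMCs were hyper-DMCs. In the next classes (8 to 16 and 17 to 24 CpGs) the hyper-DMCs were 49.3% and 78.5% of the DMCs. In the densest class (25 to 53 CpGs) 405 positions gained and 18 lost, or 95.7% hyper-DMCs. With any 1 of the 5 mice left out this share ran from 84.5% to 97.6% in the densest class and from 30.4% to 42.6% in the sparsest. The starting level of a position bounds what it can do. At positions under 5% in early carcinoma 718 hyper-DMCs and no hypo-DMC were called, and at positions of 80% or more 424 and 2905.

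By annotation, core promoters (within 500 bp of a start site) held 673 hyper-DMCs and 199 hypo-DMCs among 576963 positions, or 77.2% hyper-DMCs. Promoter shoulders, from there to 2 kb, held 613 and 315. Coding exons were nearly balanced, with 651 and 731. Introns held 1067 hyper-DMCs and 1641 hypo-DMCs, and intergenic positions 1186 and 2323, the largest share of losses (33.8% hyper-DMCs). Although core promoters had the highest share of gains, they also had the fewest DMCs for their size, 0.117% of positions gaining and 0.0345% losing, against 0.547% and 1.07% between genes.

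**Figure D2:**
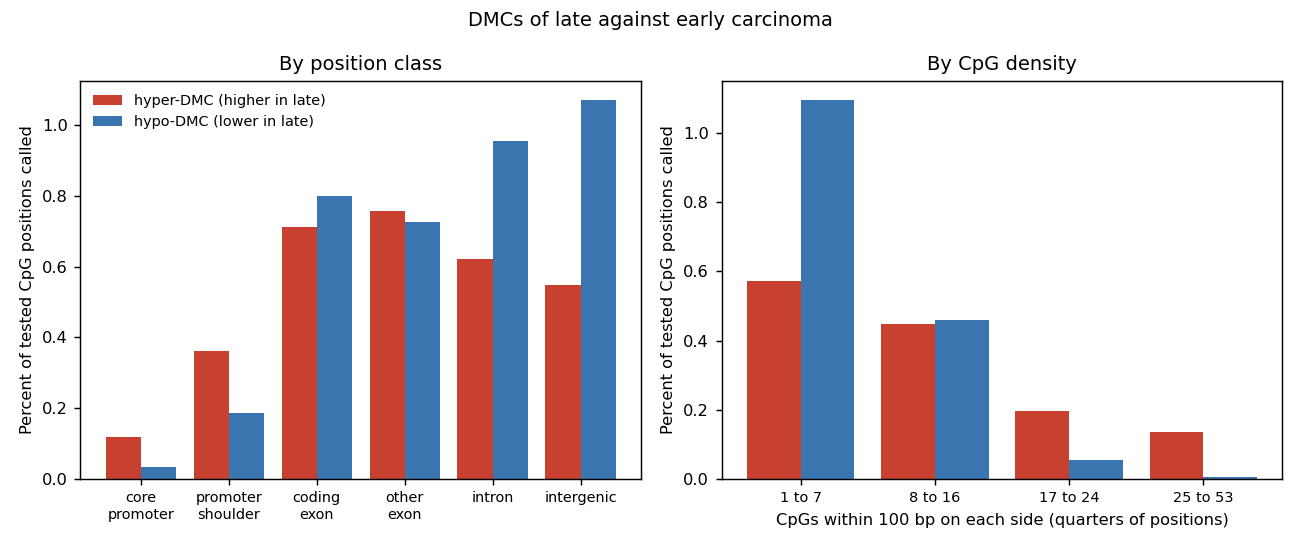
Percent of tested CpG positions (y axis, from 0) called hyper-DMC (red) or hypo-DMC (blue) in late against early carcinoma, by position class (left) and by class of CpG density (right). Core promoters and the densest class (25 to 53 CpGs) carry more gains than losses, and intergenic positions (0.547% against 1.07%) and the sparsest class carry more losses.

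Mean levels of all positions of a class use no calls, and they differed by small amounts. Core promoters had a mean methylation of 2.02%, 2.06% and 1.93% in early carcinoma and 2.13% and 2.14% in late carcinoma. The late mice were above all early mice, by 0.130 points on average. In the densest class the early mice had 0.994%, 1.03% and 0.929% and the late mice 1.15% and 1.10%, again without overlap. In the opposite direction, intergenic positions had 52.9%, 53.9% and 53.2% in early and 52.4% and 52.5% in late carcinoma, a difference of -0.867 points. The sparsest class had 60.9%, 61.9% and 61.0% against 60.3% and 60.7%. Coding exons overlapped (62.7% ± 0.423 (SD, n = 3) and 62.7% ± 0.1997 (SD, n = 2)). With 2 mice against 3 there are 10 arrangements of the labels, and the exact permutation test (two-sided) gave p = 0.2 for each of the 5 sets of positions without overlap (core promoters, intergenic positions, the sparsest class of CpG density and both dense classes), which is the smallest p this design can give. When reads were pooled over positions, the intergenic difference was -0.251 points, and the stages overlapped there and in the sparsest class (exact permutation p = 1 and p = 0.4).

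**Figure D3:**
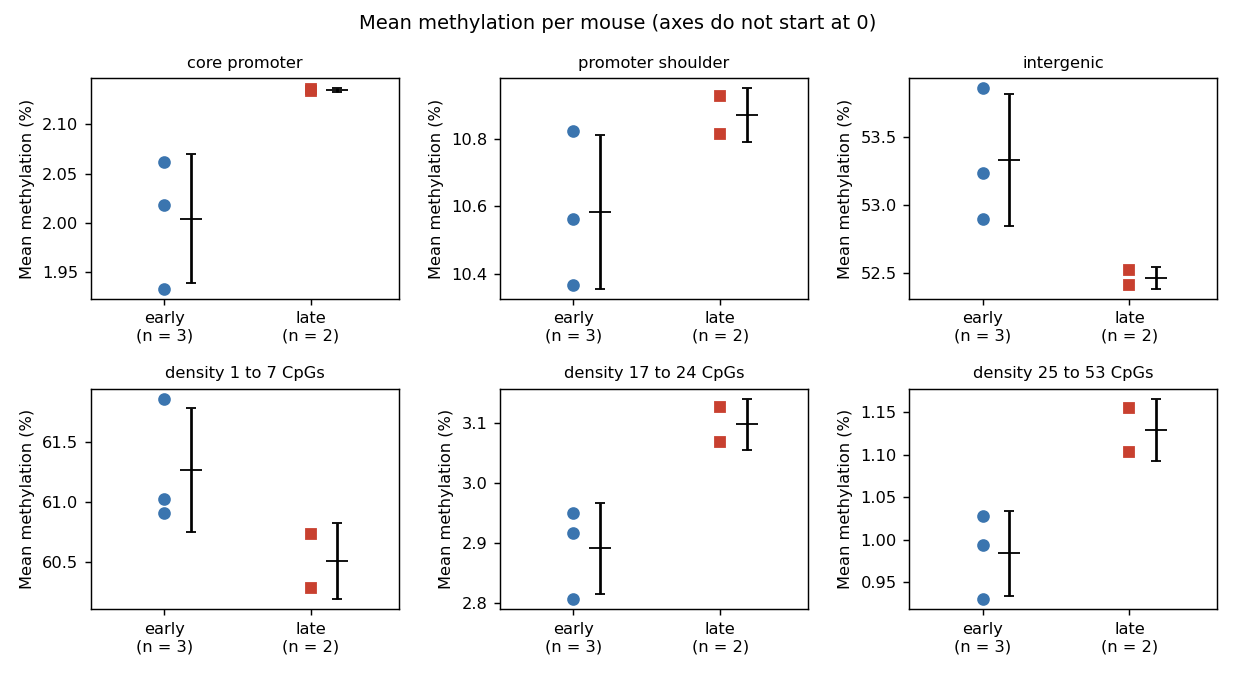
Mean methylation in percent (y axis) of 6 classes of positions, with each early carcinoma mouse as a circle and each late carcinoma mouse as a square. Black marks are the mean and SD (n = 3 and n = 2), and the y axes do not start at 0. Late carcinoma is higher without overlap at core promoters (2.13% and 2.14%) and in both CpG-dense classes, and lower without overlap at intergenic positions and in the sparsest class.

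In FVB glands the same classes barely moved from week 10 to week 12. Core promoters went there from 1.75% ± 0.0242 to 1.77% ± 0.0303 (SD, n = 3), intergenic positions went from 58.0% ± 0.0570 to 58.0% ± 0.122, and the densest class from 0.690% ± 0.0142 to 0.729% ± 0.0516. Each of these pairs differed by about the spread between mice or less.

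The earlier groups place the DMCs. At the 653 core promoter hyper-DMCs covered in all 22 samples, mean methylation was 13.2% in FVB glands of week 12, 15.6% in hyperplasia, 18.9% in adenoma/MIN, 16.4% in early carcinoma and 34.0% in late carcinoma. At the 1130 intergenic hyper-DMCs the order was different, with 48.8% in FVB glands, 43.2% in hyperplasia, 44.8% in adenoma/MIN, 38.1% in early carcinoma and 56.6% in late carcinoma. At all 5085 hypo-DMCs late carcinoma (55.9%) stood below a level that was 75.4% in FVB glands of week 12, 70.5% in hyperplasia, 68.8% in adenoma/MIN and 75.5% in early carcinoma. The early and late levels chose these positions, and only the levels of the other groups are free of that choice.

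Of the 15291 promoters with at least 5 positions, 773 (5.06%) held a hyper-DMC and 391 (2.56%) a hypo-DMC. At least 10 hyper-DMCs were found in 18 promoters and at least 10 hypo-DMCs in 1. Mean promoter methylation was higher in late carcinoma in 57.3% of promoters. Both late mice lay above all early mice in 2112 promoters (13.8%) and below them in 1088 (7.12%). No promoter passed an adjusted p of 0.05 by limma (0 of 15291, or 0%, smallest adjusted p 0.696), while 675 were higher and 181 lower at an unadjusted p under 0.05. In FVB glands these counts were 357 and 283 between the weeks. A large adjusted p does not show that a promoter did not differ.

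The largest gains without overlap were at promoters with few covered CpGs, and the genes serve unrelated tasks. Adad1, which encodes a testis RNA-binding protein, had 41.0%, 47.5% and 30.2% in early and 56.6% and 69.3% in late carcinoma over 20 positions, a difference of 23.4 ± 6.40 points (SE, limma adjusted p = 0.849). At the 17 positions covered in all 22 samples, FVB glands of week 12 averaged 46.0% ± 3.64 (SD, n = 3), hyperplasia 56.3% ± 17.4 (SD, n = 2) and late carcinoma 61.7% ± 8.49 (SD, n = 2), so hyperplasia overlapped with late carcinoma. Zfp750, a transcription factor of epidermal differentiation, had 13.9%, 7.30% and 10.97% in early and 19.4% and 36.6% in late carcinoma, against 44.6% in FVB glands, and its difference of 17.3 points was 8.64 points without late carcinoma replicate 3. Lrrtm2, a synaptic adhesion protein, had 14.0%, 12.8% and 12.3% in early and 28.2% and 25.8% in late carcinoma. Its difference was 14.0 ± 1.19 points (SE, limma adjusted p = 0.696) over 9 positions. At the 6 of them covered in all 22 samples it was 4.75 points (11.7% ± 4.46 and 16.5% ± 4.15, SD), and FVB glands of week 12 were at 19.5%. The protocadherin Pcdhgb6 had 59.0%, 57.9% and 53.5% against 71.9% and 72.3%. Gdf5, a growth factor of joint development, had 29.6%, 36.7% and 27.3% against 47.4% and 41.9%, but its FVB promoters also gained 7.80 points between the weeks. Stmn3, a stathmin of neurons, had 33.9%, 30.8% and 33.7% against 44.2% and 45.3%. The transporter gene Abcc6 had 2.07%, 5.79% and 0.833% against 9.60% and 21.0% over 5 positions, with no DMC, and its difference of 12.4 points was 6.70 points without late carcinoma replicate 3. The remaining gains named by the same rule were 9030624G23Rik, Gm6345, Bglap3, 1700110K17Rik and Gm20743, with differences of 12.6 to 19.9 points. That of Bglap3 (13.1 points) was 6.99 points without late carcinoma replicate 3.

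Losses of similar size were found at the other 12 promoters. F2rl3, the thrombin receptor PAR4, had 72.8%, 77.4% and 62.5% in early and 60.1% and 51.3% in late carcinoma. Sycp2l, related to a protein of the synaptonemal complex of meiosis, had 31.4%, 33.5% and 36.2% against 24.0% and 17.7% over 18 positions with 4 hypo-DMCs. Npy1r, a receptor of neuropeptide Y, had 43.6%, 47.8% and 49.9% against 37.6% and 33.4%. Akr1b8, an aldo-keto reductase, had 73.9%, 67.6% and 72.3% against 58.5% and 57.4%, and its level in FVB glands of week 12 was 40.5%. Trap1, a mitochondrial chaperone, and Sebox, a homeobox gene, had differences of -12.3 and -12.7 points, with limma adjusted p of 0.891 and 0.696. Tmem273, 4933414I15Rik, Krt28, Olfr750, Gm17455 and H3f4 made up the rest, with differences of -11.1 to -16.5 points. Without early carcinoma replicate 2 the difference of Krt28, a keratin gene, was -6.25 in place of -13.6 points, and without late carcinoma replicate 1 that of Olfr750 was -6.11 in place of -11.8 points. In Olfr750 the gap between the stages was narrow, with 59.0% in the lowest early and 58.9% in the highest late mouse.

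**Figure D4:**
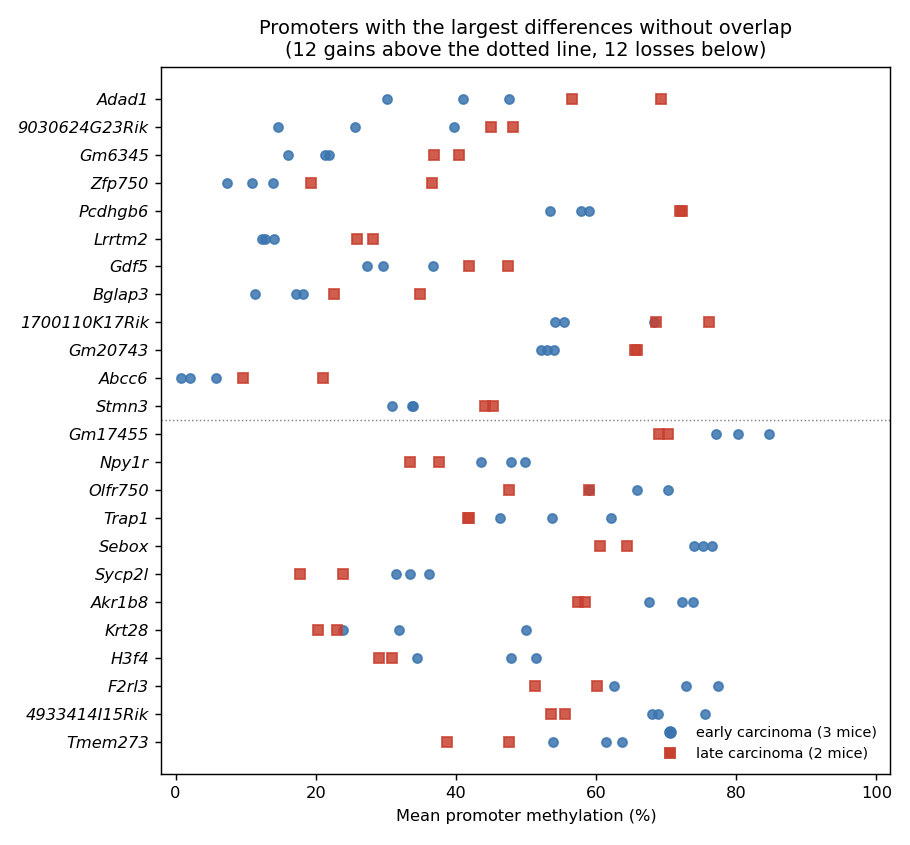
Mean promoter methylation in percent (x axis) of the 12 largest gains and the 12 largest losses without overlap (y axis, genes), with circles for the 3 early carcinoma mice and squares for the 2 late carcinoma mice. The squares lie right of all circles above the dotted line and left of them below it, as the rule demands, and the gap is wide at Lrrtm2 and narrow at 1700110K17Rik and Olfr750.

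H3f4, a histone H3 gene, held the most hypo-DMCs of all promoters, 30 of 48 positions, followed by Tmem273, Sycp2l and Krt7 with 4 each. Its promoter had 47.9%, 34.4% and 51.4% in early and 29.1% and 30.8% in late carcinoma. Its difference was -14.6 points, and -7.50 points within 500 bp of the start site. Of the 30 hypo-DMCs, 9 lay in an upstream region of 84 bp, chr11:58959973-58960056, whose sequence is printed here because all of its 9 positions were hypo-DMCs. It is shown with 20 bp on each side, and capitals mark the covered CpGs.
H3f4 upstream region: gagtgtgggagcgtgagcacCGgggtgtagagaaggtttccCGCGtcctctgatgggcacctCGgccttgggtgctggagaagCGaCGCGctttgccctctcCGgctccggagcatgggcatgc

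That region varied as much among healthy mice. Early carcinoma had 35.4%, 5.07% and 43.1% and late carcinoma 0.594% and 5.06%, so the second early mouse matched the higher late mouse. FVB glands ran from 12.6% to 40.8% at week 6, from 34.2% to 42.3% at week 8, from 2.29% to 4.62% at week 10 and from 9.12% to 32.9% at week 12. FVB mice thus spanned nearly the whole range of the carcinomas.

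Tested positions no more than 100 bp apart were joined into regions, and those with at least 5 positions were kept. Of 51566 regions, 5754 (11.2%) had both late mice above and 4883 (9.47%) both below all early mice, and limma called none (0%, smallest adjusted p 0.889, with 1557 higher and 1194 lower at an unadjusted p under 0.05). Regions with a mean difference of at least 20 points and a DMC of at least 25 points numbered 14 gains and 10 losses. The largest differences without overlap fell on short stretches. These had 4 to 6 covered CpGs in all but the Adad1 region (12) and the H3f4 upstream region (8). The sequences of 4 of these regions follow (mm10, forward strand, 20 bp on each side, covered CpGs in capitals).
Adad1 region, chr3:37063760-37063852, core promoter and coding exon, gain: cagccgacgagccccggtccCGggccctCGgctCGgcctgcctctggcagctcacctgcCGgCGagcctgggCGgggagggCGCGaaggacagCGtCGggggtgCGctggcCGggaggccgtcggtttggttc
Intergenic region, chr19:21738831-21738972, upstream of Cemip2, gain: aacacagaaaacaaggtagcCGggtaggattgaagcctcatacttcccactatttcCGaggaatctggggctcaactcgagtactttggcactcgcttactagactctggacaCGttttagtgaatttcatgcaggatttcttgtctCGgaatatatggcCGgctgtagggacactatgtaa
Heg1 region, chr16:33751757-33751838, intron, loss: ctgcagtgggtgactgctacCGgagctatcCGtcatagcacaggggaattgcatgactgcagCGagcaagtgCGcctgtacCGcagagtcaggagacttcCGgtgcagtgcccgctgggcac
Dock9 region, chr14:121547089-121547161, intron, loss: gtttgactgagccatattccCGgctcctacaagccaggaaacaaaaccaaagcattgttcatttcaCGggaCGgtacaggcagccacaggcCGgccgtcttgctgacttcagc

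Heg1 encodes a membrane protein of endothelial junctions and heart development. All 7 positions of its region were hypo-DMCs at a mean coverage of 136 reads, and methylation was 65.6%, 64.2% and 58.9% in early and 37.8% and 30.3% in late carcinoma (difference -28.8 ± 4.00 points, SE, limma adjusted p = 0.889). FVB glands of week 12 averaged 60.1% and hyperplasia 70.7%, while the adenoma/MIN mice were at 45.3%, 61.7% and 39.4%. The Dock9 region, in a gene for a guanine nucleotide exchange factor of Cdc42, had 47.9%, 66.3% and 70.4% in early and 32.3% and 44.7% in late carcinoma. FVB glands of week 12 averaged 43.4% there. The adenoma/MIN mice were at 31.2%, 49.0% and 60.2% and so overlapped with both stages. At the intergenic region near Cemip2 the early mice had 42.7%, 59.3% and 37.5% and the late mice 76.6% and 67.6%, with 3 hyper-DMCs, and 1 adenoma/MIN mouse was at 74.7%. In the Adad1 region, with 12 CpGs, the levels were 40.6%, 47.7% and 30.2% in early and 58.3% and 69.8% in late carcinoma.

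Promoters of homeobox, paired and other developmental regulators held hyper-DMCs at a higher share than promoters as a whole. Of 220 tested, 59 (26.8%) held a hyper-DMC against 5.06% of all promoters, and 8 (3.64%) held a hypo-DMC against 2.56%. These promoters have more covered positions (median 87, against 45), and counted per position 0.460% were hyper-DMCs against 0.170% in all promoters, while 0.0544% and 0.0628% were hypo-DMCs. Both late mice lay above all early mice in 68 promoters (30.9%, against 13.8%) and below in 6 (2.73%, against 7.12%), and the median difference was 0.43 points against 0.03. The count of promoters with a hyper-DMC was 39 without early carcinoma replicate 3 (17.7%, against 3.35% of all promoters) and 51 to 70 with another mouse left out.

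Within that group the Hox genes, which pattern the body axis, held a hyper-DMC in 18 of 39 promoters and a hypo-DMC in 2. The background of the family counts is 5.06% and 2.56% of all promoters, and 26.8% and 3.64% of the group. Where promoters of neighbouring genes overlap, a position counts for each gene. The Hoxa4 promoter had 6.31%, 7.37% and 6.91% in early and 6.86% and 12.9% in late carcinoma, and Hoxa5 7.13%, 9.24% and 7.90% against 7.87% and 15.6%. In both promoters only late carcinoma replicate 3 lay above the early mice. Hoxd10 (6.65%, 7.74% and 6.03% against 10.2% and 8.33%) and Hoxd12 (10.8%, 9.91% and 8.91% against 12.2% and 11.7%) were higher in both late mice. Among the 38 forkhead genes 7 held a hyper-DMC, led by Foxe1, a factor of thyroid development, with 8.83%, 8.20% and 8.49% against 13.5% and 9.57%. Of 17 Sox genes 5 did, Sox7 among them (9.21%, 10.7% and 7.10% against 12.8% and 11.04%). The eye and brain regulator Pax6 had 3.61%, 3.499% and 3.26% in early and 4.35% and 4.89% in late carcinoma, and Gbx2, of the midbrain and hindbrain boundary, 2.34%, 2.39% and 2.27% against 3.04% and 3.95%. The largest absolute differences in the group were at Sox17, an endoderm and endothelial regulator (9.32%, 7.94% and 4.68% against 13.5% and 12.2%, no DMC), and at Hoxd4, where the stages overlapped (25.4%, 40.5% and 27.1% against 33.9% and 17.4%).

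Imprinted promoters that carry methylation on the maternal copy had intermediate levels and were mostly higher in late carcinoma (10 of 13). Of all promoters 57.3% were higher. Of the 13, 3 held a hyper-DMC (23.1%, against 5.06% of all promoters; Plagl1, Peg13 and Grb10) and none a hypo-DMC, with a median difference of 1.47 points. The lowest difference was -6.39 points, at Peg3. Plagl1, a growth-restraining zinc finger gene, had 34.0%, 39.7% and 35.3% in early and 44.2% and 45.7% in late carcinoma over 55 positions, which it shares with Hymai, and 9 of them were hyper-DMCs. Peg13, a noncoding RNA gene, had 36.3%, 34.8% and 37.2% against 46.7% and 42.5%. FVB glands of week 12 were at 37.5% and 43.4% over the positions covered in all 22 samples. In the fit with FVB glands these promoters were 2.27 and 4.36 points higher at week 12 than at week 10 in FVB. The interaction terms were 6.34 and 4.72 points, with limma adjusted p of 0.829 and 0.924. The differences were 8.61 ± 2.27 and 8.51 ± 1.97 points (SE), with limma adjusted p of 0.844 and 0.837.

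Among tumor suppressors that are methylated in breast cancers, 4 of 32 promoters held a hyper-DMC (Cdkn2a, Cdkn1c, Hic1 and Dkk3) and 1 a hypo-DMC (Cdkn1c), or 12.5% and 3.13% against 5.06% and 2.56% of all promoters, with a median of 63 covered positions against 45. Dkk3, a secreted relative of the Wnt antagonists, had the largest difference, with 30.2%, 30.04% and 26.6% in early and 41.4% and 34.2% in late carcinoma, 4 hyper-DMCs and a level of 4.56% in FVB glands and 21.1% in hyperplasia. The adhesion gene Cdh13 had 4.22%, 3.72% and 5.17% against 8.59% and 6.15%, with no DMC. Hic1, a transcriptional repressor, held 7 hyper-DMCs, while its promoter mean overlapped between stages. Of 42 Wnt ligands, receptors and antagonists, 5 held a hyper-DMC (11.9%) and 2 a hypo-DMC (4.76%), with a median of 79 covered positions. The receptor gene Fzd2 had 5 hyper-DMCs and overlapping means (34.3%, 37.7% and 34.2% against 41.2% and 35.5%), and Fzd5 had none (5.81%, 7.25% and 5.47% against 6.37% and 5.10%). Of 27 genes of invasion and metastasis, 2 held a hyper-DMC (Mmp2, a gelatinase that breaks down matrix, and the metastasis suppressor Brms1), or 7.41%, near the share of all promoters, and the median difference was 0.01 points.

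Of 9 DNA methyltransferase, TET and related genes and 7 genes of Polycomb repressive complex 2 and H3K27 methylation, none held a promoter DMC. With shares of 5.06% and 2.56% over all promoters, lists this short are not set apart by a count of 0. Dnmt1, the maintenance methyltransferase, had 8.43%, 8.20% and 8.37% in early and 8.36% and 8.62% in late carcinoma. Dnmt3a, which methylates new sites, stayed between 0.191% and 0.395% in the 5 mice, and Dnmt3b between 2.56% and 2.73%. Tet1, Tet2 and Tet3, which oxidize methylcytosine, ranged over 0.444% to 1.02%, 0.0541% to 0.130% and 1.10% to 1.48%. Ezh2, the catalytic subunit of the Polycomb complex, lay at 0.0627% to 0.214%, and its partners Eed and Suz12 at 0.0930% to 0.163% and 0.0369% to 0.346%. Expression was not measured in these files.

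Promoter lists of cell types were examined beside these results because tissue composition may differ between mice. The shares of all promoters, 5.06% with a hyper-DMC and 2.56% with a hypo-DMC, are the background of these counts. Of 20 luminal epithelial promoters 1 held a hyper-DMC (Krt18, a keratin of luminal cells, at 14.5%, 13.1% and 14.4% against 15.7% and 15.9%). Krt8, its partner, lay at or under 1.48% and Epcam at or under 1.73% in all 5 mice, so these 2 promoters were nearly unmethylated in the tissue. Others were not, such as Cldn4 (11.1%, 12.8% and 13.5% against 12.9% and 19.3%). The luminal list averaged 7.05%, 7.93% and 6.74% in early and 7.33% and 8.88% in late carcinoma. Basal (11 tested, Krt5 with 1 hyper-DMC), adipocyte (10) and endothelial (10) promoters held no hypo-DMC, and fibroblast promoters (18) held a DMC of both directions at Foxc2. The leukocyte list stood apart in direction. Of its 10 tested promoters 3 held a hypo-DMC (Zap70, a kinase of T cell receptor signaling, among them), none held a hyper-DMC, and the median difference was -2.18 points. Cd79b, a component of the B cell receptor, had 30.4%, 23.0% and 39.4% in early and 23.2% and 22.04% in late carcinoma, with no DMC, and the stages overlapped. The mean of the list was 39.0%, 39.4% and 38.9% in early and 38.0% and 34.8% in late carcinoma. The count was 1 without early carcinoma replicate 3, and 10 of the 25 markers on the list had enough covered positions to be tested. The part of leukocytes in the other differences was not tested. Germline promoters (20 tested) were highly methylated in both stages, with list means of 76.6% to 77.8%, and 2 of them, Tex19.1 and Tex19.2, held a hypo-DMC and 1, Rpl10l, a hyper-DMC.

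Read coverage carries copy number as well as capture efficiency, and 1 chromosome stood out. Chromosome 11 took 8.40%, 8.17% and 8.13% of autosomal coverage in early and 8.69% and 8.56% in late carcinoma, a ratio of 1.05. Of its 25 bins of 5 Mb, 23 had a higher mean share in late carcinoma. The bin from 115 to 120 Mb held 0.905%, 0.838% and 0.841% of coverage in early and 0.986% and 1.08% in late carcinoma, a log2 difference of 0.27 ± 0.05 (SE). It had the lowest p of all 499 bins, but its limma adjusted p was 0.586 and no bin was called (0%). Both late mice lay above all early mice in 34 bins (6.81%) and below them in 73 (14.6%). By limma, 13 bins were higher and 26 lower at an unadjusted p under 0.05. With any 1 mouse left out that bin passed the threshold (log2 differences of 0.20 to 0.33), but those fits took the variance mainly from the other bins, with 53.3 to 409 degrees of freedom for the bin against 6.90 with all mice. With the replicate block its adjusted p was 0.756. In the fit of 10-Mb bins, limma called the bin from 110 to 120 Mb. Mean methylation in the bin was 25.9% in early and 25.8% in late carcinoma. The bin held 65 hyper-DMCs and 71 hypo-DMCs, together 1.24% of its 11001 positions, against 0.776% of all tested positions. Whether coverage bears on that share was not tested.

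**Figure D5:**
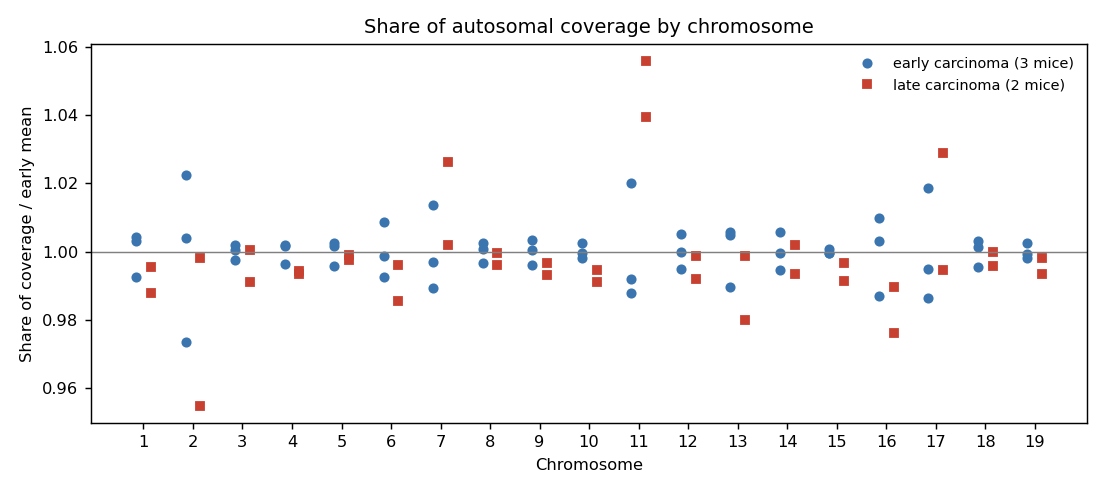
Share of autosomal coverage on each chromosome (x axis) relative to the mean of early carcinoma (y axis, a ratio, not starting at 0), with circles for the 3 early carcinoma mice and squares for the 2 late carcinoma mice. On chromosome 11 both late mice lie above the early mice, with a mean ratio of 1.05.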

How the data were processed

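ERRBS libraries of PyMT mammary tumors were compared between early carcinoma (3 mice) and late carcinoma (2 mice). The authors used Bismark and the mm10 build, and the deposited values for each CpG position with at least 10 reads are the coverage, a raw read count, and the percent of reads methylated and unmethylated, with strands apart and no normalization. Methylated reads were recovered as coverage times percent, rounded. Groups were taken from the sample labels. Coverage summed over all deposited positions was 90427138 to 109502636 per sample, where a read counts once at each CpG position it covers.

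Positions on autosomes covered in all 5 samples were tested by logistic regression on pooled reads (likelihood ratio, Benjamini-Hochberg q under 0.01, at least 10 points), in the manner of the study's methods. Promoter means (at least 5 positions), region means and the log2 share of coverage per 5-Mb bin were tested over mice with limma 3.58.1 (R 4.3.3, trend and robust variances), with Benjamini-Hochberg adjustment and a threshold of 0.05. Annotation came from RefSeq on GRCm38.p6, where 100% of positions fell on a CpG. The limma p-values measure the spread between these mice. The read test pools the reads of a stage, so its q does not measure that spread. Reads are not independent molecules. Named promoters were the 12 gains and 12 losses with the largest difference without overlap, 5 genes with the most hyper-DMCs and 5 with the most hypo-DMCs, 2 genes of each list with the largest change, and fixed genes (Ajap1, Fzd5, DNMT, TET and Polycomb genes). One gene that the rule names is not reported here. Ties in counts were broken by name, and such a tie put Aatk, with 3 hypo-DMCs, among the 5. The comparison, the gene lists and the rules were chosen with earlier results of these data known. Alternatives were other coverage minimums, merged strands, positions covered in all 22 samples, overdispersion, limma per position, a replicate block, a difference of 25 points, other windows and scales, and leaving out each mouse. The tests were tried on simulated data. Python 3.11.15, NumPy 2.4.6, SciPy 1.17.1 and pandas 2.3.3 were used, with seed 7.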

Additional observations from a re-analysis of the deposited data

How the results depend on the processing

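The DMC counts (4305 higher and 5319 lower) stayed within 1.5 times with positions of at least 20 reads, with strands merged, at positions shared by all 22 samples and under the demand that mice not overlap. They were 410 and 593 with an overdispersion correction, 613 and 1061 at a difference of at least 25 points, and 0 and 0 by limma on logit methylation. Leaving out a mouse gave 2567 to 6705 higher and 3044 to 8502 lower. The labels do not say whether mice with the same replicate number share anything else. Deviations of same-numbered mice correlated by 0.0236 and 0.00772 over positions. The deviations of the 2 late mice mirror each other, so these values cannot decide whether the numbers mark a pairing. Early carcinoma replicate 2 has no late partner, so it did not enter the differences of the replicate block. The block gave 4061 and 3727 DMCs, no promoter or region, and 1 bin higher and 1 lower (0 and 0 without it). No promoter was called in any alternative. One region was called as higher with all 4 PyMT groups in the fit (1 and 0). Bins of 10 Mb gave 1 higher and 0 lower, and leaving out a mouse gave 1 to 10 higher and 0 to 14 lower, where the highest counts came without early carcinoma replicate 1 (10 and 14). Those fits took the variance mainly from other bins (53.3 to 409 degrees of freedom for the top bin, against 6.90 with all mice). A stage left with 1 mouse is assumed to vary like the other. With pooled reads the difference of mean methylation was -0.251 points at intergenic positions, and 0.510 points and 0.615 points in the 2 densest classes of CpG density (17 to 24 and 25 to 53 CpGs). Signs turned at 24 of 637 values, at 15 of the 66 named promoters. Of these, 4 began at a difference of at least 1 point and ended at least 1 point on the other side, or on the log2 ratio scale: Dnmt3l (-1.30 points) and Hoxd4 (2.90 points) without late carcinoma replicate 3 (ranges with a mouse left out -1.30 to 5.46 and -13.6 to 2.90), and Lep (0.046) and Tiam1 (0.053) on the log2 ratio scale. The others include Gm5069 (-0.02) and Fzd2 (-0.34) within 500 bp of the start site and Aatk (-3.06) without late carcinoma replicate 1. The causes were not tested. Removing mice and the block was chosen after seeing the data for the shares by CpG density and for the list counts. With 2 mice against 3, small differences between the stages were not detectable.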
